A study of Rattus norvegicus with 8 samples.

Results

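The small leucine-rich proteoglycans examined were 9 genes, *Dcn*, *Bgn*, *Lum*, *Fmod*, *Omd*, *Ogn*, *Kera*, *Aspn* and *Prelp*. They were found by gene symbol among the rat probes of the array and had 13 probes, out of 45598 probes with 34912 gene names in all. Their signals were compared over 8 one-color arrays, 4 of non-irradiated and 4 of irradiated rat calvarial osteoblast-like cells. The question was whether the genes differed 6 h after low-level Er:YAG laser irradiation, and how much they varied between cultures in any case.

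Small leucine-rich proteoglycans are secreted matrix proteins built from leucine-rich repeats, most of which carry chondroitin, dermatan or keratan sulfate chains. They bind collagen fibrils and set their diameter and spacing, and several also bind growth factors such as TGF-β and BMPs. In bone, osteoblasts deposit them in osteoid, and osteomodulin, also called osteoadherin, is known for its affinity for hydroxyapatite. The genes lie in a few clusters. In the RefSeq gene order of the GRCr8 assembly, *Dcn*, *Lum* and *Kera* were neighbors on chromosome 7, *Prelp* and *Fmod* on chromosome 13, and *Ogn*, *Omd* and *Aspn* on chromosome 17, while *Bgn* stood alone on chromosome X.

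The probes are 60 bases long. Those of *Dcn* and *Lum* are shown because these genes moved together in single pairs of cultures, and those of *Aspn* and *Omd* because they differed between cultures of different replicate number. The capitals mark the run of 12 bases shared by the *Dcn* and *Lum* probes.
Dcn: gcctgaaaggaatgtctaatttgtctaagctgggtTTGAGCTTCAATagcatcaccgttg
Lum: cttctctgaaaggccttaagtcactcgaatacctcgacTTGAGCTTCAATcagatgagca
Aspn: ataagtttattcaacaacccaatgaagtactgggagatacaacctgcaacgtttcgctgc
Omd, bases 1 to 30 of its second probe: gtcaagaagaaacagaagagcactttaatt

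On build rn4, as written on the array, the probe of *Dcn* was on the plus strand at chr7:35037331-35041132 and that of *Lum* on the plus strand at chr7:35086409-35086468. The probe of *Aspn* was on the minus strand at chr17:21035836-21035895, and the second probe of *Omd* on the minus strand at chr17:21015413-21015472. The interval of the *Dcn* probe is far longer than the probe itself, so its bases come from separate blocks of the genome. No exon or UTR annotation of this build was used. The shared run of 12 bases occurred in 2 of the 45598 probes (0.00439%), and in their best alignment without gaps the *Dcn* and *Lum* probes matched at 30 of 57 bases. Apart from the pair of *Bgn* probes, which overlap by 51 bases, no other pair of these probes shared a run longer than 9 bases.

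All cells came from the calvariae, freed of periosteum, of Wistar rats aged 3 to 5 days and were obtained by serial enzymatic digestion, so they are a mixed primary population and not a clone. For all samples the labels name a growth medium and an osteoinduction medium with ascorbic acid, β-glycerophosphate and dexamethasone. Both groups were collected at 6 h. The irradiated cultures had received 3.3 J/cm2 over 60 s, with the medium removed according to the methods, and the non-irradiated cultures 0 J/cm2. The labels name no transgene or other genetic change. Replicates were numbered 1 to 4 in both groups, and the 2 arrays of a number are called a pair here. The names of the scanner files give both arrays of a pair the same animal number, but the labels do not say that the numbers are separate animals. With replicate number as a block, p-values are set against the spread of the differences within these pairs of cultures, as moderated by limma. They are not read as applying to animals.

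The arrays were on 1 slide, and between 26543 and 30490 of their probes were well above background with 0 saturated spots. Non-irradiated and irradiated arrays lay in different columns of the slide, so position and irradiation cannot be told apart. The arrays of each pair lay side by side in a part of the slide of their own, so position and replicate number cannot be told apart either. Of 12 osteoblast markers, 11 were above background on all 8 arrays, including *Runx2*, *Sp7*, *Alpl* and *Bglap*. *Phex* was above it on 2 arrays. Of 6 macrophage markers, 3 were detected on all arrays, and *Ptprc*, the leukocyte-defining one, on 1 array. Irradiated replicate 2 deviated from its group mean more like non-irradiated replicate 1 (r = 0.439 across probes, which are not independent) than like its own partner (0.0542). The estimates of *Dcn* and *Lum*, which rest much on replicates 1 and 2, are given with and without them. Estimates of genes outside the members are given with all replicates only.

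In the comparison of irradiated with non-irradiated cells, none of the proteoglycan genes passed the test. Of the 13 probes, 12 of 8 genes were bright enough to be tested. In a limma fit blocked on replicate number, 0 of these 12 were called at an adjusted p below 0.1, where 0% of all 26391 probes were called. At an unadjusted p below 0.05 there were again 0, against 2.54% of all probes. The smallest unadjusted p of a member probe was 0.251 in limma, for *Prelp*, and all 12 adjusted p-values were 1.00. The estimates were above 0 for 8 probes and below 0 for 4, and their median was 0.06 on the log2 scale, beside -0.0034 over all probes tested. The median size of the change, sign aside, was 0.07 for the members and 0.08 for all probes. In 1 of the 12 probes the difference had the same sign in all 4 pairs, as in 7.57% of all probes, and in 0 of 12 did the groups fail to overlap, as in 0.579% of all probes. Arrays of whole cultures do not separate fewer cells of a type from less RNA per cell.

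**Figure D1:**
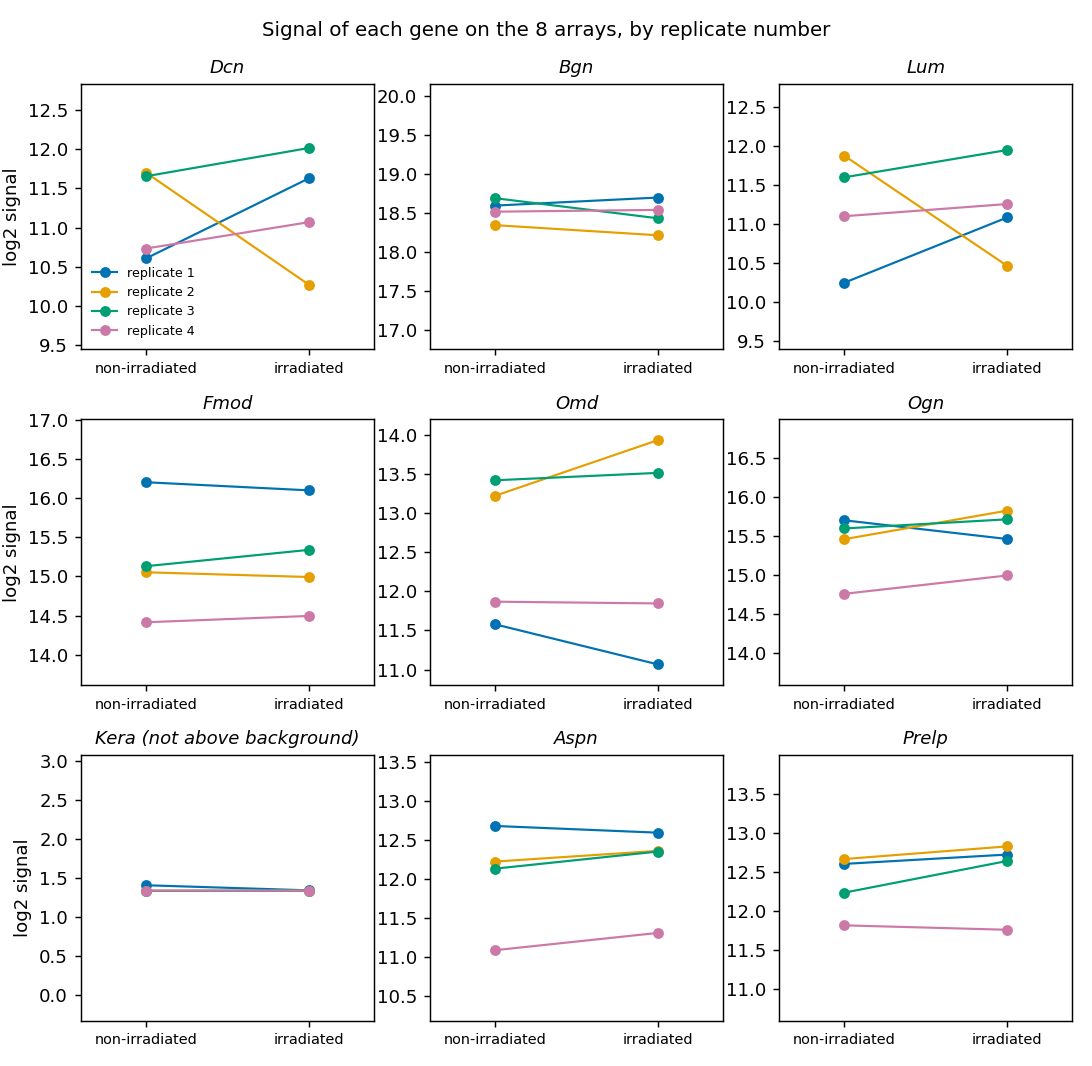
Log2 signal (vertical axis, each panel spanning the same number of log2 units) of the 9 genes on non-irradiated and irradiated arrays, with 1 point per array and a line joining the arrays of a replicate number; for genes with several probes the brightest is drawn. Lines of Fmod and Aspn are spread by replicate number but nearly level, those of Omd are spread and move by -0.51 and 0.71 in pairs 1 and 2, and those of Dcn and Lum cross.

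Decorin, the class I member that carries a single chondroitin or dermatan sulfate chain and binds collagen and TGF-β, had log2 signals of 10.60, 11.70, 11.66 and 10.73 in non-irradiated replicates 1 to 4. In the irradiated replicates *Dcn* was at 11.63, 10.27, 12.02 and 11.07. The groups overlapped widely, with means of 11.17 ± 0.59 and 11.25 ± 0.76 (SD, n = 4 each). The log2 fold change was 0.07 with a standard error of 0.39, and its 95% interval ran from a fold of 0.545 to one of 2.03.

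Biglycan, the relative of decorin on chromosome X that is known to promote bone formation, varied least over the 8 arrays among the tested genes after quantile normalization. *Bgn* was at 18.59, 18.34, 18.69 and 18.51 in non-irradiated and at 18.70, 18.21, 18.43 and 18.54 in irradiated replicates 1 to 4. Over the 8 arrays its log2 signal ranged over 0.48, and the fold change had an interval from 0.781 to 1.17. The standard error of its log2 fold change was 0.119, and 0.155 with 75th percentile scaling, where its range was not compared. Its other probe, which overlaps the first, gave a log2 fold change of -0.06, against -0.07 for the first.

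Asporin, a class I protein that lacks the sulfated chain and restrains TGF-β and BMP signaling, was at 12.68, 12.22, 12.13 and 11.09 in the non-irradiated replicates. In the irradiated replicates *Aspn* was at 12.59, 12.36, 12.35 and 11.31. It was higher after irradiation in 3 of 4 pairs, by at most 0.22. The log2 fold change was 0.12 ± 0.12 (SE), with a fold interval from 0.894 to 1.33.

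Lumican, a class II keratan sulfate proteoglycan of collagen fibrils, behaved much like decorin over the pairs. *Lum* was at 10.25, 11.88, 11.60 and 11.10 in non-irradiated and at 11.08, 10.46, 11.95 and 11.25 in irradiated replicates 1 to 4. Its log2 fold change was -0.02 with a standard error of 0.36, and the fold interval from 0.537 to 1.82 was nearly as wide as that of *Dcn*.

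Fibromodulin, which shares its collagen binding site with lumican, was at 16.21, 15.05, 15.13 and 14.41 without and at 16.10, 14.99, 15.34 and 14.49 with irradiation. The arrays of each pair lay within 0.21 of each other, whereas replicate 1 was above all others in both groups. The log2 fold change of *Fmod* was 0.03 ± 0.12 (SE), with a fold interval from 0.840 to 1.24.

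Osteomodulin, the class II member most tied to mineralized tissue, had 2 probes that did not overlap. On the brighter one *Omd* was at 11.58, 13.22, 13.42 and 11.87 in the non-irradiated replicates and at 11.07, 13.94, 13.52 and 11.85 in the irradiated ones. On the second it was at 9.27, 11.39, 11.60 and 10.23 without and at 8.83, 11.89, 11.75 and 10.24 with irradiation. Both probes placed replicates 2 and 3 above replicates 4 and 1 in both groups. The log2 fold changes were 0.07 ± 0.21 (SE) and 0.06 ± 0.17 (SE), with pair 1 lower and pair 2 higher after irradiation on both probes.

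Osteoglycin, the class III member also called mimecan, was at 15.70, 15.46, 15.59 and 14.76 in non-irradiated and at 15.46, 15.82, 15.71 and 14.99 in irradiated replicates on its brighter probe. The second probe of *Ogn* was the one that was higher after irradiation in all 4 pairs, by 0.0012, 0.13, 0.12 and 0.04. These differences were small, and the estimate of 0.08 ± 0.11 (SE) had an unadjusted p of 0.502 in limma.

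Prelp, a class II protein that binds heparan sulfate and anchors basement membranes to collagen, was at 12.60, 12.67, 12.23 and 11.82 without and at 12.72, 12.83, 12.64 and 11.76 with irradiation on its brighter probe. Its log2 fold change of 0.16 ± 0.12 (SE) was the one farthest from 0 among the members here. It was 0.075 without replicate 3, where *Lum* (-0.14), *Ogn* (0.12) and *Aspn* (0.091) lay farther from 0. Without replicate 1 it was 0.17, where *Lum* (-0.30), *Omd* (0.26), *Dcn* (-0.25), *Ogn* (0.24) and *Aspn* (0.19) lay farther from 0. Without replicate 2 it was 0.16, where *Dcn* (0.58) and *Lum* (0.45) did. Without replicates 1 and 2 together it was 0.175, where *Dcn* (0.35), *Lum* (0.25), *Aspn* (0.22) and *Ogn* (0.176) did. With the probes of a gene averaged it was 0.066, where *Aspn* (0.12), *Ogn* (0.098) and *Dcn* (0.073) lay farther from 0. The second *Prelp* probe gave -0.03 ± 0.13 (SE), so the 2 probes differed in sign. Keratocan, the class II member known from the cornea, was not well above background on any of the 8 arrays, with log2 signals from 1.33 to 1.41, and *Kera* was not tested.

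**Figure D2:**
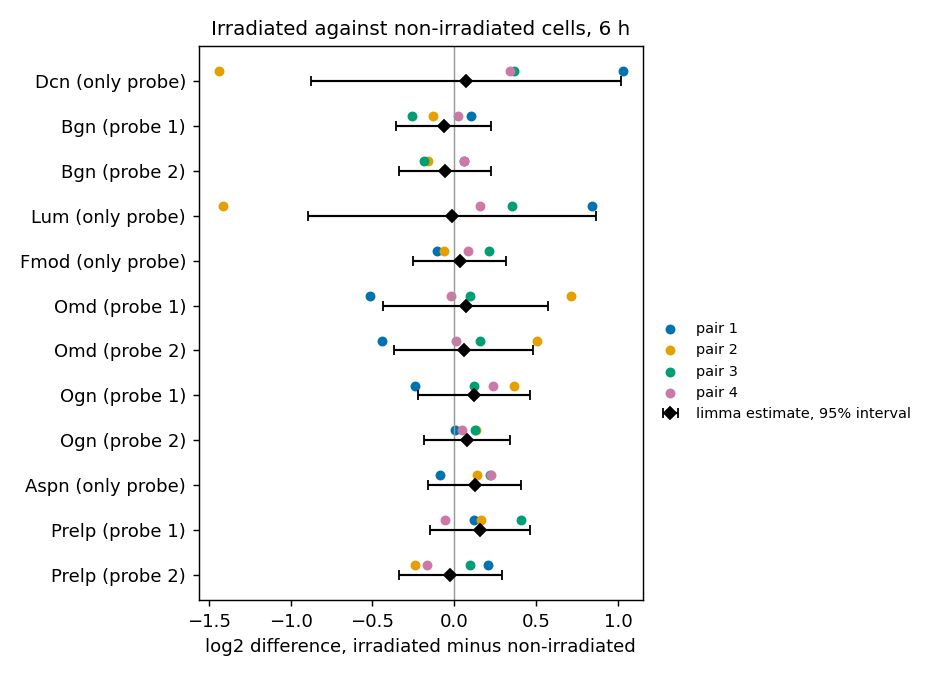
Log2 difference, irradiated minus non-irradiated (horizontal axis), of the 12 tested probes, with the limma estimate and its 95% interval in black and the 4 pairs as colored points (probe 1 is the brighter one). Every interval includes 0, and those of Dcn and Lum are the widest, with pair 2 at -1.44 and -1.41.

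Several members differed between replicate numbers. The F test of the replicate terms in the same limma fit called 6 of the 12 probes at an adjusted p below 0.1, where 9.21% of all 26250 probes with no missing array were called. These 6 were *Fmod* (adjusted p = 0.0241), both *Omd* probes (0.0311 and 0.0147), *Aspn* (0.0335), the second *Ogn* probe (0.0625) and the brighter *Prelp* probe (0.0825). The probes of a gene did not always give the same call, since the other *Ogn* probe had an adjusted p of 0.134 and the other *Prelp* probe of 0.227. *Dcn*, *Bgn* and *Lum* did not pass, with adjusted p-values of 0.532, 0.422 and 0.451. Probes of 1 gene share their transcript, so the 6 probes stand for 5 genes.

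The range of the 4 replicate means was 2.26 and 2.63 on the log2 scale for the *Omd* probes, or 4.79-fold and 6.18-fold. Of all tested probes, 1.11% and 0.625% had ranges as wide as these. *Fmod* ranged over 3.25-fold and *Aspn* over 2.71-fold, which 3.10% and 5.66% of all tested probes reached. Both *Prelp* probes and both *Ogn* probes ranged over at most 1.94-fold. *Lum* and *Dcn*, which were not called, ranged over 2.15-fold and 1.92-fold, which 13.3% and 20.8% of all tested probes reached. The brighter *Bgn* probe ranged over 1.29-fold. The median range between replicate means was 0.95 on the log2 scale for the members and 0.56 for all tested probes, while the median of the mean absolute pair difference was 0.18 for the members and 0.25 for all probes. In all 12 probes the range between replicate means was wider than the mean absolute difference within pairs, a comparison of a range over 4 means with a mean over 4 differences that is given as a description.

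The genes did not follow one order of replicate numbers. *Fmod* and *Aspn* were highest in replicate 1, with means of 16.15 and 12.63, and lowest in replicate 4, with means of 14.45 and 11.20. *Omd* was lowest in replicate 1, at 11.32 on its brighter probe, and at 13.58 and 13.47 in replicates 2 and 3. *Ogn* and *Prelp* were lowest in replicate 4, at 14.88 and 11.79 on their brighter probes. The neighbors *Omd* and *Aspn* on chromosome 17 thus had opposite extremes in replicate 1.

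**Figure D3:**
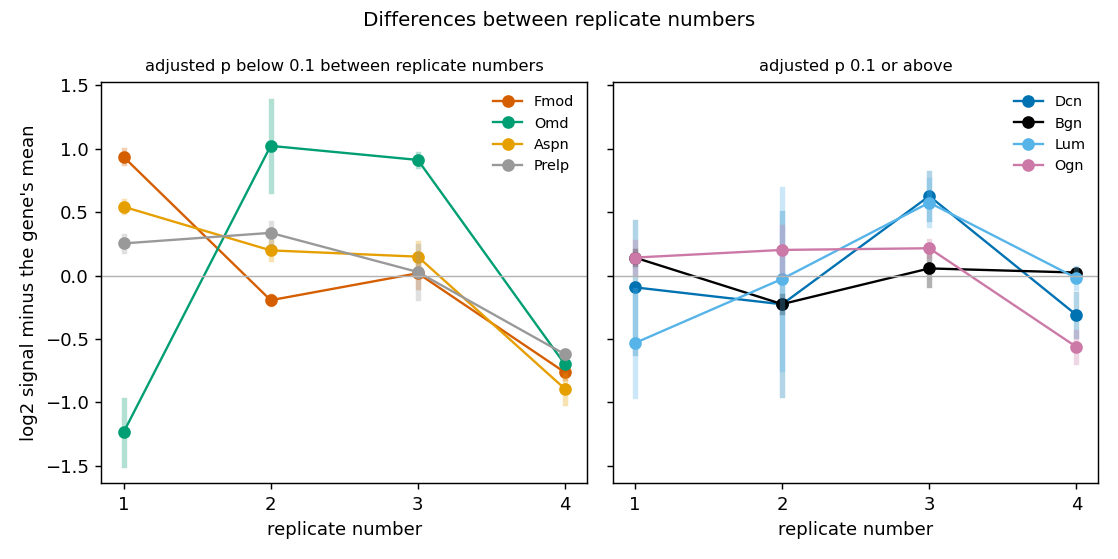
Mean log2 signal of each replicate number minus the gene's overall mean (vertical axis) for the brightest probe of the 8 tested genes, with pale bars spanning the non-irradiated and irradiated arrays of that number and genes divided by the adjusted p of the replicate test. Fmod and Aspn are highest and Omd lowest in replicate 1, and the pale bars are longest for Dcn and Lum in replicates 1 and 2.

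Some markers of osteoblasts and of other cell types also differed between replicate numbers. At an adjusted p below 0.1, 4 of 5 tested chondrocyte markers, 2 of 4 tendon markers, 2 of 5 fibroblast markers and 0 of 3 macrophage markers were called, beside the 9.21% of all probes. From the other lists, 3 of 5 endothelial, 3 of 11 osteoblast, 1 of 3 osteocyte and 1 of 4 skeletal muscle markers were called. Of 6 chondrocyte markers, 5 were above background on all arrays, while *Matn3* was not well above it on any. Their summed normalized signal was 7290 and 7414 in the pair of replicate 1 and between 83705 and 182989 in the other pairs. The 4 tendon markers, all detected, summed to 68352 and 79886 in replicate 1 and to between 19743 and 27867 elsewhere. The called *Thbs4* had a mean log2 signal of 15.20 in replicate 1 and of 9.09 to 11.97 elsewhere, whereas *Mkx* was at 9.39 to 9.62 in all 4 numbers (adjusted p = 0.859 in limma). *Tnmd*, the other called one, was at 10.65 in replicate 1 and 9.07 to 9.52 elsewhere. *Scx*, also a large part of these sums, was at 15.02 in replicate 1 and 14.00 to 14.44 elsewhere, and did not pass (adjusted p = 0.139 in limma). The 6 fibroblast markers, of which 5 were detected on all arrays and *Cd34* on 1 array, summed to 119487 and 128331 in replicate 1 and to between 22681 and 47699 elsewhere. The sum in replicate 1 was mostly *Mfap5*, with a mean log2 signal of 16.61 there and of 12.85 to 14.58 elsewhere. *Pdgfra* was highest in replicate 3, at 13.95 beside 13.87 in replicate 1, and did not pass (adjusted p = 0.177 in limma). *Fmod* and *Aspn* were highest in replicate 1, as *Thbs4* and *Mfap5* were. So were the called osteoblast markers *Alpl* and *Bglap*, at 10.74 and 8.81. These were lowest in replicate 4, at 8.51 and 6.85, as *Fmod* and *Aspn* were. The called *Ibsp* was also lowest in replicate 4, at 4.66, but highest in replicate 3, at 6.33. *Omd* was lowest in replicate 1, as the chondrocyte sum was, but was nearly as low in replicate 4 (11.86 beside 11.32), where that sum was 83705 and 85753. Outside replicate 1 that sum was mostly *Col2a1* and *Col9a1*. The 4 called chondrocyte markers were all lowest in replicate 1. *Sox9*, which did not pass (adjusted p = 0.197 in limma), was at 10.735 and 10.72 in replicates 1 and 4. In replicates 2 and 3 it was at 11.57 and 11.35. The part of these cells in the differences was not tested.

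The count of probes that differed between replicate numbers depended on which numbers were included. Without replicate 1 it was 0 at an adjusted p below 0.1 in limma, with a smallest adjusted p of 0.101, and 0.563% of all probes were called. There 8 member probes had an unadjusted p below 0.05 in limma, but the share of all probes at that threshold was not counted. Without replicate 2 the count at an adjusted p below 0.1 was 10, including *Dcn* and *Lum*, and 36.7% of all probes were called. Without replicate 3 it was 3 (*Aspn*, *Fmod* and the second *Omd* probe) with 1.76% of all probes called, and without replicate 4 it was 1 (the second *Omd* probe) with 1.27% called.

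*Dcn* and *Lum* differed from the other members in how their pairs varied. In pair 1 the irradiated array was higher by 1.03 for *Dcn* and by 0.84 for *Lum* on the log2 scale. In pair 2 both genes were lower, at -1.44 and -1.41. In pairs 3 and 4 the differences were 0.36 and 0.34 for *Dcn* and 0.35 and 0.16 for *Lum*, so both genes were higher in 3 of 4 pairs. Only 1.32% and 2.82% of the tested probes had a mean absolute pair difference as large. No other member probe had a pair difference above 0.71, which the brighter *Omd* probe reached in pair 2.

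The same opposition of pairs 1 and 2 was found across the array. With a cutoff of 0.5 on the log2 scale, 6.77% of the 26250 probes were higher in pair 1 and lower in pair 2, and 4.25% were lower in pair 1 and higher in pair 2. By contrast, 0.522% were higher in both and 0.499% lower in both. *Dcn* and *Lum* belonged to the first kind, and the brighter *Omd* probe, at -0.51 and 0.71, to the second.

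**Figure D4:**
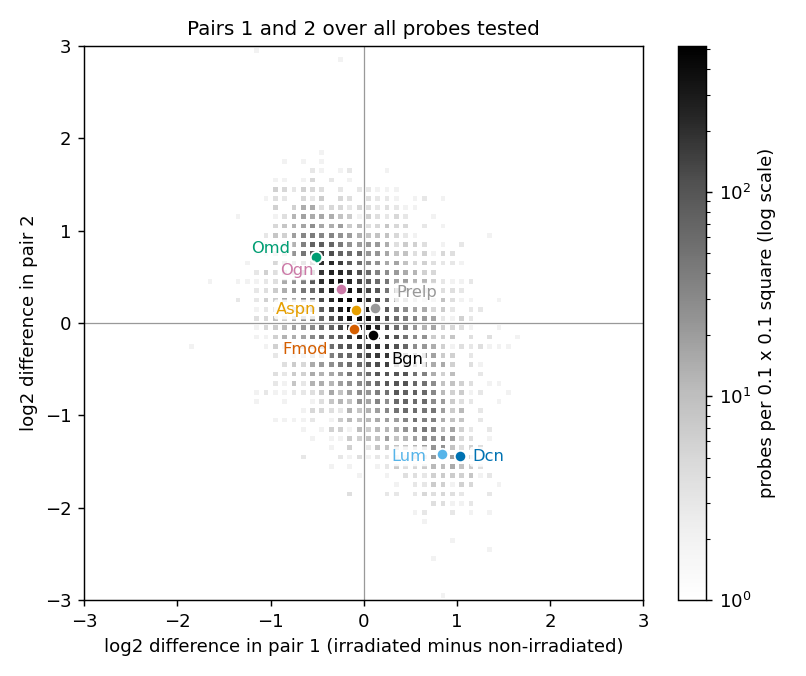
Log2 difference in pair 1 (horizontal axis) against that in pair 2 (vertical axis), with the 26250 probes counted in gray squares (values beyond the axes drawn at the edge) and the brightest probe of each tested proteoglycan gene in color. The cloud slopes from upper left to lower right, with Omd toward its upper end and Dcn and Lum near its lower end.

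An index of transcript coverage moved with these arrays. For 1681 transcripts with probes at least 1000 bases apart, the signal of the upstream probe relative to the downstream one was centered on its mean over the 8 arrays. The median of this difference was -0.13 and -0.05 for the non-irradiated and irradiated arrays of replicate 1, and 0.06 and -0.08 for those of replicate 2. In replicates 3 and 4 it was 0.02 and 0.04, and 0.13 and 0.06. Within pairs 1 and 2 the arrays with the lower index, non-irradiated replicate 1 and irradiated replicate 2, were also the lower ones for *Dcn* and *Lum*. In pair 4 it was not so, as the irradiated array had the lower index and the higher signals. The part of this index in the differences was not tested.

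The estimates for *Dcn* and *Lum* therefore changed with the pairs used. Without replicate 2 the log2 fold changes were 0.58 and 0.45, with unadjusted p-values of 0.0194 and 0.0380 in limma, but the adjusted p was 0.868 for both, and 5.33% of all probes had an unadjusted p below 0.05 there. Without replicate 1 they were -0.25 and -0.30. With both numbers left out, an analysis chosen after seeing the data, they were 0.35 and 0.25, and the unadjusted p of *Dcn* was 0.0354 (adjusted p = 0.782) where 6.34% of all probes were below 0.05.

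For each member whose signal ranged over more than 1 on the log2 scale, the genes with the most similar course over the 8 arrays were found by the root mean square difference of centered log2 signals. The closest to *Fmod* was *Cpz*, a carboxypeptidase of the matrix (0.086), followed by *Nrep* (0.117) and *Hecw2* (0.130). *Aspn* was followed most closely by *Abi3bp*, an extracellular matrix protein (0.101), and *Tnnc1* (0.104), and then by a probe named *Scp2* (0.113). The description of that probe names podocan, which is itself a small leucine-rich proteoglycan, so its gene is uncertain. For *Omd* the nearest was *S100b*, a calcium-binding protein that chondrocytes also make (0.155), then *Klf15* (0.221) and *Gng13* (0.278).

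*Ogn* had the closest companions, with *Phlda2* (0.058), *Thra* (0.068) and *Zdhhc14* (0.073). *Prelp* was followed by *Hoxa11* (0.107), *Tmem63c* (0.128) and *Pfn3* (0.130). The nearest to *Lum* were *Srpx2* (0.155), *Grcc10* (0.185) and *Slx1b* (0.186), and those to *Dcn* were *Fosb* (0.219), *Nupr1* (0.248) and *Ddx3* (0.249). *Bgn* ranged over less than 1 and was not included. These are likenesses over 8 arrays chosen from all tested genes.

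Among 69 other genes of proteoglycan biology, 68 were found on the array by name and 61 were tested. At an unadjusted p below 0.05 there was 1 of these 61, *Mmp3*, where 2.54% of all probes passed, so the count was no higher than over the whole array. At an adjusted p below 0.1 there were 0. Of the 61 estimates, 42 were above 0, and their median was 0.03 on the log2 scale, beside -0.0034 over all probes tested. The share of all probes above 0 was not counted, and genes on the same arrays are not independent. *Mmp3* encodes stromelysin-1, which cleaves proteoglycan core proteins. It was higher after irradiation in 4 of 4 pairs, by 1.17, 0.46, 0.38 and 0.28, with a log2 fold change of 0.57 ± 0.18 (SE), an unadjusted p of 0.0179 and an adjusted p of 1.00 in limma. It was 1 of 9 tested genes of processing and degradation, and the other 8 did not pass at the unadjusted threshold.

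In the remaining lists 0 genes had an unadjusted p below 0.05. The list of other small leucine-rich proteoglycans had 6 tested genes, with the largest change in *Nyx*, nyctalopin, at 0.42 ± 0.19 (SE). The 20 tested genes that build the linker and the chondroitin or dermatan sulfate chains had theirs in *B3galt6*, a linker galactosyltransferase, at -0.33 ± 0.16 (SE), lower in 4 of 4 pairs. Of the 17 ligands and receptors, the collagen receptor subunit *Itga2* changed most, at 0.31 ± 0.17 (SE). Of the 9 genes of keratan sulfate synthesis it was *B3gnt2*, at -0.23 ± 0.55 (SE), a dim probe that was well above background on 4 non-irradiated and 3 irradiated arrays.

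Between replicate numbers, 17 of these 61 genes, with 1 probe each, were called at an adjusted p below 0.1, again beside 9.21% of all probes. With the probes of a gene averaged, 10.7% over the whole array were called. Of the other small leucine-rich proteoglycans, *Epyc*, *Podnl1* and *Ecm2* were called (3 of 6). *Epyc*, epiphycan, a class III protein of cartilage, had a mean log2 signal of 8.10 in replicate 1, 9.13 and 9.25 in replicates 2 and 3, and 8.195 in replicate 4, an order close to that of *Omd*. *Ecm2* had its lowest mean in replicate 4, at 8.21 beside 9.21 to 9.57 elsewhere. Of the processing genes 5 of 9 were called, of the ligands and receptors 4 of 17, of the chondroitin and dermatan sulfate genes 3 of 20 and of the keratan sulfate genes 2 of 9.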

How the data were processed

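Total RNA (200 ng) from each of 8 cultures was labeled with Cy3 for 1 array. The authors deposited spot intensities from Feature Extraction 11.0.1.1, which subtracts background and detrends within an array, and log2 values that they had quantile normalized. Here processed signals were log2 transformed and quantile normalized over 58717 rat-probe spots, outlying spots (446 to 690 per array) were left out and spots of a probe averaged. Probes that over 50% of spots placed well above background on all 4 arrays of either group were fitted in R 4.3.3 by limma 3.58.1 blocked on replicate number, with two-sided tests and Benjamini-Hochberg adjustment over all probes. Calls used an adjusted p below 0.1, which the study applied together with a fold limit of 2 that was not used here. Paired arrays carry the same animal number in the scanner files' names, and the study's table is paired. Deviations from group means correlated within numbers at 0.608, 0.0542, 0.571 and 0.749 across probes, and irradiated replicate 2 with non-irradiated replicate 1 at 0.439. The script was tested on simulated data.

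Named were the 9 genes, listed genes at an unadjusted p below 0.05, the largest change of each list, and the 3 nearest genes. Where 1 probe stands for a gene it is the brightest. *Epyc*, *Ecm2* and *Podnl1* were named after their values were seen. The members and lists were chosen with earlier results of these data known. Columns of the authors' own comparisons were not used. Probe positions are those of rn4. The number of arrays limits the precision, and brightness is not compared between probes. Alternatives were 75th percentile scaling, normexp (offset 50), the deposited log2 values, other filters on dim probes, outlying spots kept, no block or a random block, a trended robust prior, averaged probes, and replicates left out.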

Additional observations from a re-analysis of the deposited data

How the results depend on the processing

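Of the member probes fitted (12, but 13 with no filter, 9 in the deposited log2 values and 8 after averaging per gene), 0 were called at an adjusted p below 0.1 in the comparison of irradiated with non-irradiated cells under every alternative run. With no replicate block, 0 members and 1 other proteoglycan gene had an unadjusted p below 0.05, as in the paired analysis, and 246 of all probes did, against 670. The count of members below 0.05 was 0 to 2 with a replicate left out (2 without replicate 2) and 1 without replicates 1 and 2 together, a setting chosen after seeing the data. The count of other proteoglycan genes below 0.05 was 2 instead of 1 with the deposited log2 values (60 tested) and with a random replicate block (61 tested). Of all probes, 1.22% and 2.63% were below 0.05 in these settings. With a replicate left out the count was 1 to 2, where 1.48% to 5.33% of all probes were below 0.05. The number of members that differed between replicate numbers, 6, became 3 with no filter on dim probes, where 1.36% of all probes were called, and 0 to 10 with a replicate left out. That test was not run without the block, with a random block or without replicates 1 and 2. Signs of log2 fold changes near 0 turned. *Lum*, at -0.02, was 0.011 with normexp, 0.017 with the deposited values, 0.25 without replicates 1 and 2 and -0.30 to 0.45 with a replicate left out. With a replicate left out *Dcn* was -0.25 to 0.58, *Omd* -0.15 to 0.26 and *Fmod* -0.028 to 0.077. The cause was not tested. The other 155 values kept their direction and their side of the threshold or, for counts, stayed within 1.5 times. Over the alternatives, the array-wide median change lay between -0.023 and 0.013 (log2).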
